A study of Sus scrofa with 18 samples.

Results

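Serum RNA on pVAD support was compared with serum RNA at Baseline in the same 6 pigs. The comparison takes the 6 libraries of the pVAD time point and the 6 libraries of the Baseline time point, 12 of the 18 libraries of the series, and a sheet of the deposited data gives the animal behind each library. All animals were female Danish Landrace pigs aged 5 months. On pVAD, blood was drawn during support with an Impella CP, a percutaneous ventricular assist device (pVAD) that carries blood out of the left ventricle into the aorta, after 30 min of support and with cardiogenic shock (CS) still present. At Baseline, venous blood was drawn from the same animals before either intervention. CS had been induced between these draws by microspheres given into the left coronary arteries. No animals with shock of the same length but without the pump are among these libraries, so shock, support and elapsed time cannot be told apart in pVAD vs. Baseline.

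Serum holds RNA that cells have shed or lost, carried in vesicles, in lipoproteins and bound to proteins, along with RNA of residual platelets and of cells that broke during clotting or spinning. An axial pump exposes blood to high shear, which is known to rupture red cells and to activate platelets and neutrophils, and an ischemic heart releases its own contents. In serum, more releasing cells and more RNA per cell cannot be told apart.

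Counts summed over genes ranged from 34.6 to 49.5 M (median 39.1 M) in pVAD libraries and from 18.2 to 42.9 M (median 37.7 M) in Baseline libraries. After TMM scaling, which sets libraries to a common composition, the effective library sizes were 20.3 to 60.5 M on pVAD and 15.1 to 52.7 M at Baseline (exact permutation p = 0.197, two-sided). In pVAD replicate 6 the 4 most abundant transcripts took 57.6% of the counts and its TMM factor was the lowest of the 12 (0.454). Levels are given below as CPM, counts per M of effective library size, and changes as log2 fold changes of pVAD over Baseline with their standard error (SE). The replicate number names the animal, and pVAD and Baseline libraries of the same pig deviated together with a median r of 0.21 across genes (0.038 to 0.604).

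Against Baseline, serum on pVAD carried more transcript of CXCL8, the chemokine that draws neutrophils, and of ARFGAP2, which helps shed the coat of Golgi vesicles. It carried less of RBM15, an RNA-binding subunit of the complex that methylates adenosines in mRNA, of GNAT1, the transducin of rod photoreceptors, and of HSPA14, an HSP70-like chaperone at the ribosome. Of these, ARFGAP2 was not called without pVAD replicate 1 (0.75), and HSPA14 neither without Baseline replicate 2 (-0.47) nor with the pig as a block (-1.02). Calls required an unadjusted p under 0.05 and more than a 1.5-fold difference. Of 26146 transcripts tested, 218 (0.834%) were called, 116 higher (0.444%) and 102 lower (0.39%). Unadjusted p was below 0.05 for 228 transcripts (0.872%), and every Benjamini-Hochberg adjusted p of the edgeR test was 1. Uniform p values would put a share of 0.05 below that cut, so the comparison as a whole had no excess of small p values. The median change of all tested transcripts was 0.01 on the log2 scale, with 52.4% above 0. With the pig as a block the test called 184 transcripts, 99 higher and 85 lower, of which 87 were among the 218. Without Baseline replicate 6 it called 422 transcripts, 239 higher and 183 lower.

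CXCL8, a chemokine of monocytes, endothelium and neutrophils, had 0.513, 0.802 and 3.31 CPM on pVAD (lowest, median, highest) against 0, 0.215 and 0.373 CPM at Baseline. Each pVAD library lay above each Baseline library, and pVAD was the higher time point in 6 of 6 pigs. The mean was 1.19 ± 1.05 CPM on pVAD and 0.174 ± 0.147 CPM at Baseline (SD, n = 6 each), a change of 2.71 (SE 0.97). In reads, the 6 pVAD libraries held 326 and the 6 Baseline libraries 42, with 0 reads in Baseline replicates 2 and 5. The highest pVAD library was replicate 2, and without it the change was 2.08. The call passed with the pig as a block and without each library in turn. In CS the mean was 0.423 CPM.

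**Figure D1:**
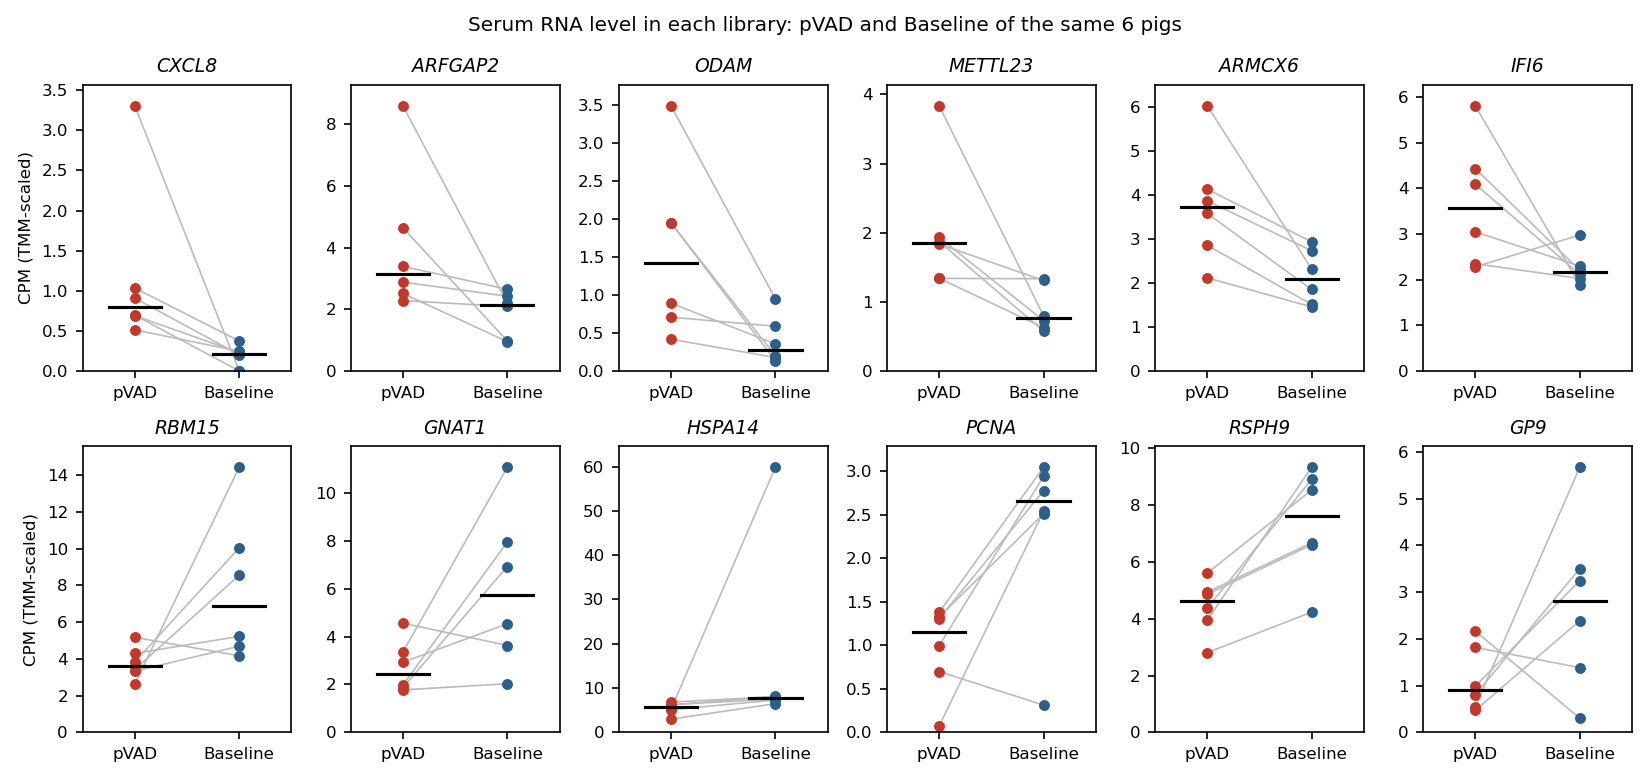
Serum level (CPM, y axis starting at 0) of 12 named genes in the 6 pVAD libraries (red, left) and the 6 Baseline libraries (blue, right), with grey lines joining libraries of the same pig and black bars at the median. The upper row shows genes called higher and the lower row genes called lower; CXCL8 and METTL23 do not overlap between the time points, and a single Baseline library carries HSPA14 to 59.9 CPM.

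CXCL8 was the only called member of a list of 44 cytokines and chemokines, 30 of which were measured (1 higher, 0 lower, 17 above and 13 below 0, median log2 change 0.05). TNF, the early pro-inflammatory cytokine, had 0.246, 2.69 and 4.39 CPM on pVAD against 2.51, 4.24 and 7.47 CPM at Baseline. It was lower on pVAD in 6 of 6 pigs. Its change of -0.85 passed the fold threshold, but its unadjusted p was not below 0.05. With the pig as a block it was called at -1.11. IL10, an anti-inflammatory cytokine, was likewise lower in 6 of 6 pigs, with 0.246, 2.42 and 3.32 CPM on pVAD and 1.29, 3.38 and 8.07 CPM at Baseline, and was not called. CXCL9, an interferon-induced chemokine, was higher on pVAD in 6 of 6 pigs but was not called (0.71, SE 0.75). Across all tested transcripts, 1.47% were higher on pVAD in all 6 pigs and 0.887% lower. Of 34 receptors for chemokines and cytokines and 27 genes of the NF-kappa-B pathway measured, 0 were called. The neutrophil list beside the CXCL8 result had 0 of 16 measured members called, a median change of -0.07, and a summed level of 100 to 252 CPM on pVAD and 138 to 250 CPM at Baseline; its part in the CXCL8 result was not tested.

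ARFGAP2 had 2.28, 3.13 and 8.60 CPM on pVAD (lowest, median, highest) and 0.948, 2.14 and 2.65 CPM at Baseline. The highest pVAD library was replicate 1, and the time points overlapped although pVAD was higher in 6 of 6 pigs. The change was 1.11 (SE 0.43), and without pVAD replicate 1 it was 0.75 and no longer called. ODAM, a secreted protein of the enamel organ and gum epithelium, had 0.418, 1.42 and 3.50 CPM on pVAD and 0.132, 0.278 and 0.948 CPM at Baseline, a change of 1.95 (SE 0.77) that was higher in 6 of 6 pigs. Its call was lost without pVAD replicate 6 (1.55). METTL23, a methyltransferase, had 1.34, 1.85 and 3.84 CPM on pVAD and 0.576, 0.763 and 1.33 CPM at Baseline. Its time points did not overlap, but the call (1.17, SE 0.48) was lost without pVAD replicate 2 (0.89) and in the paired fit by pig (1.12).

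ARMCX6, an armadillo-repeat protein encoded on the X chromosome, was higher on pVAD in 6 of 6 pigs, with 2.12, 3.73 and 6.03 CPM against 1.46, 2.08 and 2.94 CPM at Baseline (0.82, SE 0.34). GGCT, an enzyme of glutathione breakdown, had 2.399, 4.45 and 7.19 CPM on pVAD and 1.48, 2.15 and 3.74 CPM at Baseline (0.96, SE 0.41). LENG8 had 6.97, 10.1 and 16.2 CPM on pVAD and 3.42, 5.81 and 10.4 CPM at Baseline (0.78, SE 0.32). All 3 overlapped between the time points and stayed called with the pig as a block. The call of LENG8 was lost without pVAD replicate 1, pVAD replicate 2 or Baseline replicate 6 (0.64 to 0.65), that of ARMCX6 without pVAD replicate 1 or Baseline replicate 4 or 6 (0.63 to 0.73), and that of GGCT without pVAD replicate 2 or 5 or Baseline replicate 2, 4 or 5 (0.77 to 0.92).

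ZAR1, a protein of the egg that acts at the start of embryonic development, had 0.934, 1.92 and 2.85 CPM on pVAD and 0.289, 0.856 and 1.38 CPM at Baseline (1.17, SE 0.51), and pVAD was higher in 6 of 6 pigs. A processed pseudogene annotated as IFN-ALPHA-1 had 0.909, 2.93 and 4.22 CPM on pVAD and 0.305, 0.934 and 3.11 CPM at Baseline (1.21, SE 0.54). Interferon alpha genes are near-identical copies, so its reads are of uncertain origin. Both calls leaned on many libraries: ZAR1 lost its own without any of 6 libraries (pVAD replicates 1, 2 and 3, Baseline replicates 2, 4 and 5, at 0.98 to 1.13) and with the block (1.23), and IFN-ALPHA-1 without any of 8 (pVAD replicates 1, 2 and 6, Baseline replicates 1, 2, 3, 4 and 6, at 1.01 to 1.21).

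PLXNC1, a receptor for semaphorins on leukocytes and neurons, was the called transcript with the most reads among those higher, at 165, 338 and 1630 CPM on pVAD and 241, 263 and 407 CPM at Baseline. Only 3 of 6 pigs were higher on pVAD, so the change of 1.01 (SE 0.44) was carried by a few libraries. Without pVAD replicate 6 it was 0.37, and the call was also lost without pVAD replicate 5 or Baseline replicate 1, 3, 4 or 5 (0.37 to 0.98 in all) and with the pig as a block (0.55). NIP7, a factor of ribosome assembly, was called on 128 reads over the pVAD libraries and 13 over the Baseline libraries, with 3 pigs higher and 3 lower. Its change of 2.77 (SE 1.21) lost the call without pVAD replicate 1 or 2 or Baseline replicate 1, 2, 3 or 6 (2.13 to 2.67) and with the block (2.55).

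RBM15 had 2.63, 3.63 and 5.17 CPM on pVAD (lowest, median, highest) and 4.17, 6.89 and 14.4 CPM at Baseline. It fell in 5 of 6 pigs, with overlapping time points, by 1.05 on the log2 scale (SE 0.35), and stayed called with the block and without each library in turn, but not with all 18 libraries. GNAT1 had 1.77, 2.45 and 4.56 CPM on pVAD and 2.03, 5.73 and 11.1 CPM at Baseline. It too was lower in 5 of 6 pigs (-1.13, SE 0.39) and kept its call in every alternative that was run. GNAT1 was the single called gene of 16 measured retina markers (8 above and 8 below 0, median -0.03).

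HSPA14 had 3.00, 5.69 and 6.84 CPM on pVAD and 6.49, 7.81 and 59.9 CPM at Baseline, and was lower on pVAD in 6 of 6 pigs. Most of the mean difference came from Baseline replicate 2, the library at 59.9 CPM. The change of -1.58 (SE 0.58) was -0.47 without that library and no longer called, and the call was also lost with the pig as a block (-1.02). Among 36 chaperones measured it was the single call, with 14 above and 22 below 0 and a median change of -0.04. The heat-inducible co-chaperone DNAJB1 had a median of 5.33 CPM on pVAD and 4.00 CPM at Baseline, and the constitutive HSPA8 a median of 9.64 CPM on pVAD and 10.4 CPM at Baseline, neither called.

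Baseline replicates 2 and 5 were also the highest libraries of several other transcripts that were lower on pVAD. NDFIP2, an adaptor of the NEDD4 ubiquitin ligases, had 16.0, 26.6 and 44.0 CPM on pVAD and 19.9, 30.4 and 213 CPM at Baseline, with 3 of 6 pigs lower. Its change of -1.11 (SE 0.45) was -0.06 without Baseline replicate 5 and lost its call with the block (-0.67). CORT, the neuropeptide cortistatin, had 0, 0.263 and 0.529 CPM on pVAD and 0.0889, 0.596 and 5.13 CPM at Baseline (-2.59, SE 0.96), and lost its call without Baseline replicate 2 (-1.65) and with the block (-2.13). PTH1R, the receptor of parathyroid hormone, had 2.61, 3.61 and 4.96 CPM on pVAD and 2.61, 6.21 and 17.3 CPM at Baseline (-0.94, SE 0.39), and lost its call without Baseline replicate 2 (-0.50). ARRDC3, an arrestin-like protein that promotes degradation of beta-adrenergic receptors, had 0.527, 1.74 and 2.87 CPM on pVAD and 1.91, 3.45 and 8.73 CPM at Baseline (-1.20, SE 0.45), and lost its call without Baseline replicate 5 (-0.81). All 4 overlapped between the time points.

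The gene listed as CPNE1, a calcium-dependent membrane-binding protein, carries the description of RBM12 in the deposited annotation, so its identity is uncertain. It had 6.36, 8.79 and 12.6 CPM on pVAD and 11.2, 13.1 and 19.2 CPM at Baseline, and was lower on pVAD in 5 of 6 pigs (-0.63, SE 0.23). Without pVAD replicate 1, pVAD replicate 2 or Baseline replicate 5 its change (-0.56 to -0.52) was under the fold threshold. NARS1, the asparaginyl-tRNA synthetase, had 4.89, 5.63 and 7.73 CPM on pVAD and 5.07, 8.71 and 16.7 CPM at Baseline (-0.77, SE 0.31), and was not called without Baseline replicate 2 or 5 (-0.65 and -0.57). KLK12, a secreted serine protease, was lower in 5 of 6 pigs, with 0.985, 3.39 and 4.65 CPM on pVAD and 3.95, 6.10 and 7.33 CPM at Baseline (-0.95, SE 0.39), and not called without pVAD replicate 5 or 6 (-0.84 and -0.77). All 3 overlapped between the time points.

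MPLKIP, mutated in a form of trichothiodystrophy in humans, had 0.0985, 0.606 and 0.934 CPM on pVAD and 0.143, 1.39 and 4.05 CPM at Baseline, a change of -1.63 (SE 0.68) in 5 of 6 pigs. KIF22, a kinesin of mitosis, had 3.56, 4.70 and 6.69 CPM on pVAD and 4.98, 6.04 and 19.8 CPM at Baseline, a change of -0.81 (SE 0.34) in 4 of 6 pigs. Both overlapped between the time points. MPLKIP lost its call without Baseline replicate 1 or 5 (-1.41 to -1.22) and KIF22 without pVAD replicate 2 or Baseline replicate 5 (-0.73 to -0.41). CPNE1, NARS1, KLK12, MPLKIP and KIF22 stayed called with the pig as a block.

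Beside these genes, 6 transcripts without a symbol were named for their p value. The protein-coding ENSSSCG00000014896 had the smallest p of the comparison (0.0014 before adjustment). It had 154 reads over the pVAD libraries and 4 over the Baseline libraries, or 0.0652, 0.451 and 1.47 CPM on pVAD and 0, 0 and 0.0503 CPM at Baseline (4.75, SE 1.30). The long non-coding RNA (lncRNA) ENSSSCG00000044439 fell to 0.197, 0.469 and 1.52 CPM on pVAD, against 1.54, 2.07 and 4.23 CPM at Baseline (-1.97, SE 0.59). Neither overlapped between the time points, and both stayed called in every alternative that was run. The other 4 were a pseudogene and 3 protein-coding genes, described in the file as basigin, a vomeronasal receptor and a PRAME-like antigen. Their changes were -2.82 to -1.26, and the vomeronasal receptor lost its call with the block. It also lost it without Baseline replicate 5 (-1.25), as did the pseudogene (-1.94), and basigin lost it without Baseline replicate 2 (-0.75).

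For 18 transcripts (0.0688%) the pVAD and Baseline libraries did not overlap at all, 12 with pVAD above and 6 with pVAD below, and 9 of them were called. Of these 18, 12 were lncRNAs, the type of 5831 of the 26146 transcripts tested, and this count was not tested. ARID1A, a subunit of the SWI/SNF chromatin remodeler, and FLT3, a growth factor receptor of blood progenitors, were separated by small differences. ARID1A had 21.2 to 27.3 CPM on pVAD and 28.1 to 33.6 CPM at Baseline (-0.28), and FLT3 had 30.003 to 32.7 CPM on pVAD and 33.0 to 42.4 CPM at Baseline (-0.23). Neither reached the fold threshold or an unadjusted p below 0.05, and both were singled out after their values were seen. Of the 218 called transcripts, 29 were higher and 17 lower on pVAD in 6 of 6 pigs. Of all tested transcripts, 1.47% were higher and 0.887% lower in 6 of 6 pigs. The calls were made on the same libraries, so this agreement between pigs adds no separate support.

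Cell type markers were set side by side at each time point, and the cells that their reads came from were not tested. Red cell, platelet and white cell markers, the cells most exposed to a pump, showed a single call. The 20 red cell genes measured had 0 called (7 above and 13 below 0, median -0.09) and a summed level of 455, 602 and 1050 CPM on pVAD (lowest, median, highest) and 528, 699 and 1220 CPM at Baseline. HBB, the beta chain of hemoglobin, had 146, 250.7 and 711 CPM on pVAD and 257, 338 and 776 CPM at Baseline; it was lower on pVAD in 5 of 6 pigs without passing the threshold (-0.26). The 14 measured genes of the response to free hemoglobin, among them HMOX1, which breaks heme down (medians 3.88 CPM on pVAD and 3.596 CPM at Baseline), had 0 called.

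GP9, a subunit of the platelet receptor for von Willebrand factor, was called lower, with 0.472, 0.898 and 2.17 CPM on pVAD and 0.305, 2.82 and 5.67 CPM at Baseline. The time points overlapped, 4 of 6 pigs were lower, and the change of -1.29 (SE 0.58) lost its call with the block (-1.34) and without any of 7 libraries (pVAD replicates 1, 2, 4 and 5, Baseline replicates 2, 4 and 5, at -1.25 to -0.94). It was the single call of 21 platelet genes measured, 9 above and 12 below 0 (median -0.01). GP1BA, another subunit of the same receptor, had 3.97, 5.02 and 35.6 CPM on pVAD and 7.01, 15.9 and 19.4 CPM at Baseline and was not called (-0.49). It was called at -1.47 without pVAD replicate 6 and at -1.0005 with the block. Without pVAD replicate 6, 3 platelet genes were called lower, among them RGS18 (-0.82), and 0 higher. The granule chemokine PPBP went the other way without a call, with medians of 9.44 CPM on pVAD and 8.13 CPM at Baseline. The summed platelet level was 446 to 561 CPM on pVAD and 406 to 595 CPM at Baseline.

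Of markers of monocytes (15), T and NK cells (19), B and plasma cells (15) and endothelial cells (22) measured, 0 were called, with list medians of 0.02 to 0.07. Of 20 cardiomyocyte genes measured, 0 were called, and their summed level was 380 to 421 CPM on pVAD and 376 to 451 CPM at Baseline. TNNT2 and TNNI3, the cardiac troponins T and I, had medians of 9.52 and 0.632 CPM on pVAD and of 12.2 and 0.735 CPM at Baseline. NPPB, the natriuretic peptide of the stretched ventricle, had 5.42, 6.45 and 13.5 CPM on pVAD and 3.01, 6.39 and 9.04 CPM at Baseline (0.35, SE 0.31). Skeletal muscle (14), hepatocyte (27), lung alveolar (14), kidney tubule (12), neuron (18) and keratinocyte (16) markers had 0 called. Reads at marker genes of neurons, muscle and liver were thus found in serum at both time points, and for these lists the summed ranges of pVAD and Baseline overlapped. Whether these reads came from those tissues was not tested.

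**Figure D2:**
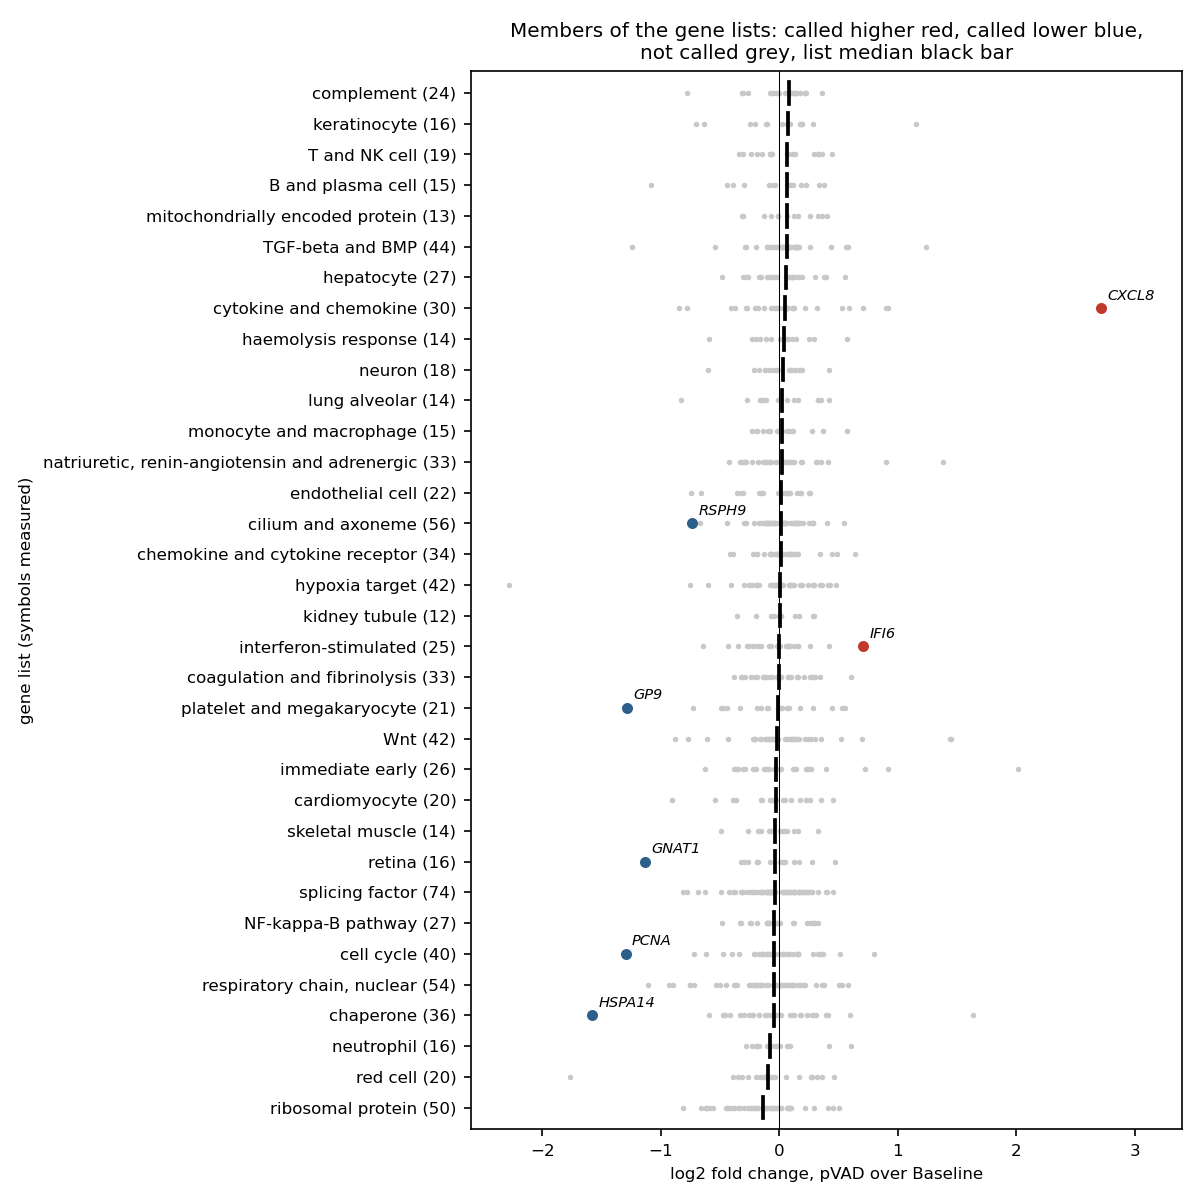
Log2 fold change of pVAD over Baseline (x axis) for the measured members of the 34 gene lists (y axis, symbols measured in brackets), with called members in red (higher) and blue (lower), members not called in grey and the list median as a black bar. List medians run from -0.14 (ribosomal proteins) to 0.09 (complement), and 7 genes are called in all.

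Over all 34 lists, 934 symbols were measured and 7 genes called, 2 higher and 5 lower (0.749%, against 0.834% of all transcripts tested). IFI6, an interferon-induced protein of mitochondria, was the second one higher, with 2.28, 3.57 and 5.81 CPM on pVAD and 1.88, 2.16 and 2.98 CPM at Baseline (0.71, SE 0.33). In CS it averaged 6.47 CPM. Its call was among the least stable: it was lost without any of 9 libraries (pVAD replicates 1, 2 and 6, Baseline replicates 1, 2, 3, 4 and 6, CS replicate 2, at 0.53 to 0.71) and with the block (0.65). The other 24 interferon-stimulated genes measured were not called, and MX1, an antiviral GTPase, had medians of 11.2 CPM on pVAD and 11.7 CPM at Baseline. PCNA, the sliding clamp of DNA replication, was the single call of 40 cell cycle genes, with 0.0727, 1.15 and 1.38 CPM on pVAD and 0.314, 2.66 and 3.05 CPM at Baseline. A single low library, Baseline replicate 2, kept the time points overlapping, and the change of -1.29 (SE 0.60) lost its call without any of 8 libraries (pVAD replicates 1, 2 and 3, Baseline replicates 1, 3, 4, 5 and 6, at -1.31 to -1.05). AURKB, a kinase of mitosis, was lower on pVAD in 5 of 6 pigs but stood at 208.8 CPM in the highest pVAD library, and its change of 0.51 became -1.13, a call, without pVAD replicate 6. RSPH9, a radial spoke protein of motile cilia, fell in 6 of 6 pigs and was the single call of 56 cilium genes, with 2.81, 4.62 and 5.60 CPM on pVAD and 4.23, 7.60 and 9.34 CPM at Baseline (-0.74, SE 0.33; not called without pVAD replicate 4 or 6 or Baseline replicate 1, 4 or 5, at -0.70 to -0.64).

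The programs tied to low flow and oxygen lack gave no calls. Of 42 hypoxia targets measured, 0 were called (23 above and 19 below 0, median 0.01). VEGFA, the vascular growth factor, had medians of 9.65 CPM on pVAD and 14.2 CPM at Baseline, and ADM, the vasodilator adrenomedullin, 1.34 CPM on pVAD and 2.19 CPM at Baseline. Of 33 genes of the natriuretic, renin-angiotensin and adrenergic systems, 33 of coagulation and fibrinolysis, 24 of complement, 26 immediate early genes, 44 of TGF-beta and BMP signaling and 74 splicing factors, 0 were called. With the block, AGTR2, the type 2 angiotensin receptor, was called higher, on 76 reads over the pVAD libraries and 26 over the Baseline libraries. FOS, an immediate early transcription factor, was higher on pVAD in 5 of 6 pigs without a call (0.40). DVL2, a cytoplasmic transducer of Wnt signals, was lower in 6 of 6 pigs with 2.07, 4.11 and 4.97 CPM on pVAD and 3.25, 5.57 and 14.4 CPM at Baseline. Its change of -0.77 passed the fold threshold, but its unadjusted p was not below 0.05. With the pig as a block it was called at -0.69, the single block call of the 42 Wnt genes. FZD8, a Frizzled receptor for Wnt, went the other way at 1.44 without a call. DESeq2 called FZD8 higher (1.43) and DVL2 lower (-0.77).

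Ribosomal proteins leaned lower, with 13 of 50 above and 37 below 0 and a median of -0.14, against 0.01 for all tested transcripts, but 0 were called. Their summed level was 844, 966 and 1725 CPM on pVAD (lowest, median, highest) and 525, 1240 and 2170 CPM at Baseline. With the block 1 was called higher and 1 lower, and 3 were called lower without Baseline replicate 6. The 13 proteins encoded in mitochondrial DNA had 0 called and a median of 0.07, and here a single library decided the count. Their summed level was 2384.5 CPM in pVAD replicate 6 and 305 to 1070 CPM (median 455) in the other 5 pVAD libraries, against 622 to 1080 CPM (median 924) at Baseline. The TMM factor was 0.454 in pVAD replicate 6 and 0.930 to 1.55 in the other pVAD libraries. The excess in that library therefore depends on the scaling. Without pVAD replicate 6, 3 subunits of respiratory complex I were called lower, ND3 at -0.78, ND5 at -0.66 and ND6 at -0.87. The 54 nuclear-encoded genes of the respiratory chain had 0 called and a median of -0.04.

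Genes of microRNAs (miRNAs), which silence mRNAs by base pairing, were called in 13 of 118 cases tested, 8 higher and 5 lower. They were read thinly: the 8 higher genes held 253 reads over the pVAD libraries and 8 over the Baseline libraries, and the 5 lower genes 5 and 113 reads. Several belong to families of near-identical copies (let-7, miR-19b, miR-20b, miR-124, miR-125b), so the copy a read came from is uncertain. Reads at a miRNA gene can stem from the mature RNA or from its precursor, which the counts do not separate.

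The miR-320 gene (ssc-mir-320) had reads in 6 of 6 pVAD libraries and in none of the Baseline libraries. In pVAD replicates 1 to 6 it had 1, 1, 3, 10, 5 and 4 reads. The time points did not overlap, and the pooled level on pVAD was 6.18 times a floor of 3 reads over the Baseline group. That floor allows for counting error at Baseline only, not for counting error on pVAD or the spread between libraries. The call of ssc-mir-320 (log2 change 4.97, SE 1.53) held with the block and without each library in turn. In CS 9 reads were found, in 3 of 5 libraries. The miR-325 gene (ssc-mir-325) had 39 reads in 4 pVAD libraries, 28 of them in replicate 5, and 0 at Baseline. Its pooled level was 10.0 times the same floor, or 3.38 times without replicate 5, and it was also called with the block. These are the only called miRNA genes that stayed called with the pig as a block, and neither was called by DESeq2.

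MIR124-3, a neuronal miRNA gene, had 120 reads over the pVAD libraries, 95 of them in replicate 1, and 5 reads over the Baseline libraries, all in replicate 3. Its change of 4.32 (SE 1.58) was 3.00 and not called without pVAD replicate 1. The let-7c gene (ssc-let-7c) had 12 reads in total over 6 of 6 pVAD libraries and 1 read at Baseline. The ratio was 9.26 (95% exact interval 1.37 to 396, counting error only). Its call was lost without any of 8 libraries (pVAD replicates 3, 4 and 6, Baseline replicates 1, 2, 3, 5 and 6, at 2.26 to 2.61). MIR19B-1 had 28 reads on pVAD, 22 of them in replicate 1, and 2 at Baseline, a ratio of 10.8 (95% exact interval 2.73 to 93.6), and ssc-mir-9826, ssc-mir-9799 and ssc-mir-20b-1 had 12, 9 and 9 reads on pVAD in 2 or 3 libraries and 0 at Baseline. Each of these 4 calls was lost without any of 6 to 12 libraries, at 1.81 to 3.14 for MIR19B-1, 3.44 to 4.30 for ssc-mir-9826, 3.52 to 3.597 for ssc-mir-9799 and 2.25 to 3.49 for ssc-mir-20b-1.

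The 5 lower miRNA genes were each carried by 1 to 3 Baseline libraries. The gene of miR-30a (ssc-mir-30a), a miRNA abundant in heart and kidney, had 1 read on pVAD and 41 at Baseline, 35 of these in replicate 2. Its change of -4.95 was -2.44 and not called without that library. MIR10A had 4 reads on pVAD and 34 at Baseline, 26 of them in replicate 5 (-4.24, and -1.37 without it). MIR212 had 0 reads on pVAD and 15 at Baseline, 11 of them in replicate 1 (-2.81 without it, not called). The let-7a-2 gene (ssc-let-7a-2) had 18 reads, all in Baseline replicate 4, without which too few reads were left to test it. For ssc-mir-125b-2, 5 reads were found in 3 Baseline libraries (call lost without any of 7 libraries, at -3.07 to -2.55). None of the 5 was called with the block.

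miR-200b (ssc-mir-200b), the miRNA the study centers on and a regulator of epithelial identity and hypoxia responses, had 38 reads over the pVAD libraries and 24 over the Baseline libraries. Its level was 0, 0.0696 and 0.436 CPM on pVAD and 0, 0.0619 and 0.252 CPM at Baseline, with overlapping time points and pVAD higher in 4 of 6 pigs. The mean difference was 0.0249 CPM (exact permutation p = 0.773, two-sided; 0.594 by sign flips within pigs). Of the 38 pVAD reads 24 were in replicate 1, and without that library the mean difference was -0.0386 CPM.

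**Figure D3:**
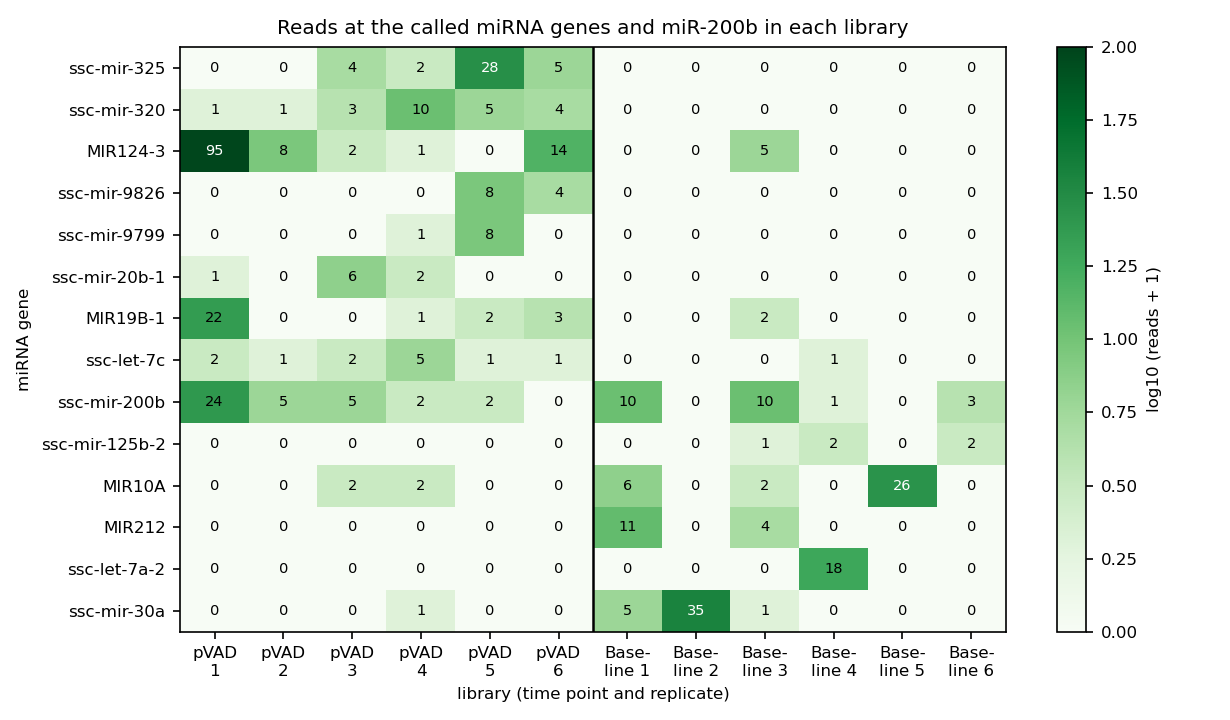
Reads at the 13 called miRNA genes and miR-200b (rows, ordered by log2 change) in the 6 pVAD libraries (left of the black line) and the 6 Baseline libraries (right), with the color giving log10 of reads + 1. ssc-mir-320 and ssc-let-7c have a read in each pVAD library, while most other rows rest on a single library, such as 95 reads of MIR124-3 in pVAD replicate 1.

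Small RNAs took a large share of the calls beyond miRNAs. Of 134 small nucleolar RNAs (snoRNAs), which guide modification of ribosomal RNA, 15 were called higher and 2 lower, and of 378 small nuclear RNAs (snRNAs), the cores of the spliceosome, 15 were called higher and 22 lower. Together with miRNAs, 67 of 630 small RNA genes were called (10.6%), against 0.555% of 18907 protein-coding genes and 0.600% of 5831 lncRNAs. U6, the catalytic snRNA, is annotated in 278 tested copies, 12 of which were called higher and 18 lower. The 12 held 263 reads on pVAD and 1 at Baseline, and the 18 held 3 reads on pVAD and 187 at Baseline, while all 278 copies together had 4299 reads on pVAD and 2944 at Baseline. The copies of U6, like those of U3 with 3 of 9 called higher, are near-identical, so reads may be split among them.

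These calls sat at low counts. With fewer than 10 reads per library on average lay 1712 transcripts, 6.55% of those tested, and 107 of the 218 calls (49.1%). In that range 66 of 574 small RNA genes were called (11.5%) and 29 of 745 protein-coding genes (3.89%). In 41 of the called transcripts the Baseline libraries had 0 reads and in 26 the pVAD libraries had 0. Among transcripts of at least 1000 reads per library, 2 of 4063 were called, 1 in each direction. Small RNA calls numbered 90 with all 18 libraries, 78 with no filter on reads, 7 with the pig as a block and 5 with DESeq2. They numbered 36 with counts thinned to the same effective depth, a setting added after the data were seen. The filterByExpr filter keeps genes with enough reads in enough libraries, 24801 in all. With it 0 small RNA genes were called. It removes thinly read genes before the fit, so this 0 is not a test of them.

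**Figure D4:**
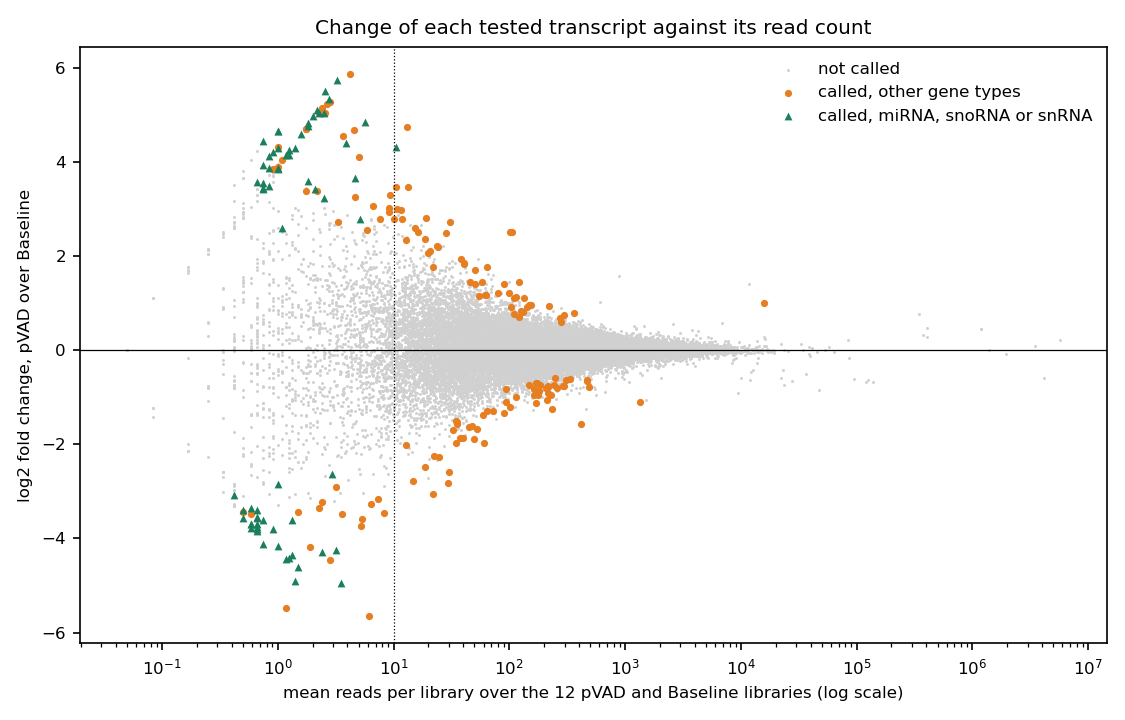
Log2 fold change of pVAD over Baseline (y axis) against mean reads per library over the 12 libraries (x axis, log scale) for the 26146 tested transcripts, with called miRNA, snoRNA and snRNA genes as green triangles, other called transcripts in orange and the dotted line at 10 reads. Of the calls, 49.1% lie left of the line.

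A single library often held most of a called transcript. Among the 116 transcripts called higher, the top pVAD library held a median of 45.8% of the summed pVAD CPM, and in 50 of them over 50%. Among the 102 called lower, the top Baseline library held a median of 47.0%, and in 49 of them over 50%. The same medians over all tested transcripts with a read were 26.7% on pVAD and 27.2% at Baseline. Of these transcripts, 6.41% on pVAD and 8.06% at Baseline had over 50% in the top library. The groups are not matched for depth. Fewer than 10 reads per library were found for 49.1% of the calls and 6.55% of all tested transcripts. The part of read depth in this contrast was not tested. pVAD replicate 6 was the top library of 34 transcripts called higher and Baseline replicate 5 of 31 called lower. Of protein-coding calls, 2 pairs of transcripts had nearly the same counts in all 12 libraries (r of 0.996 and 0.999) and may share reads.

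**Figure D5:**
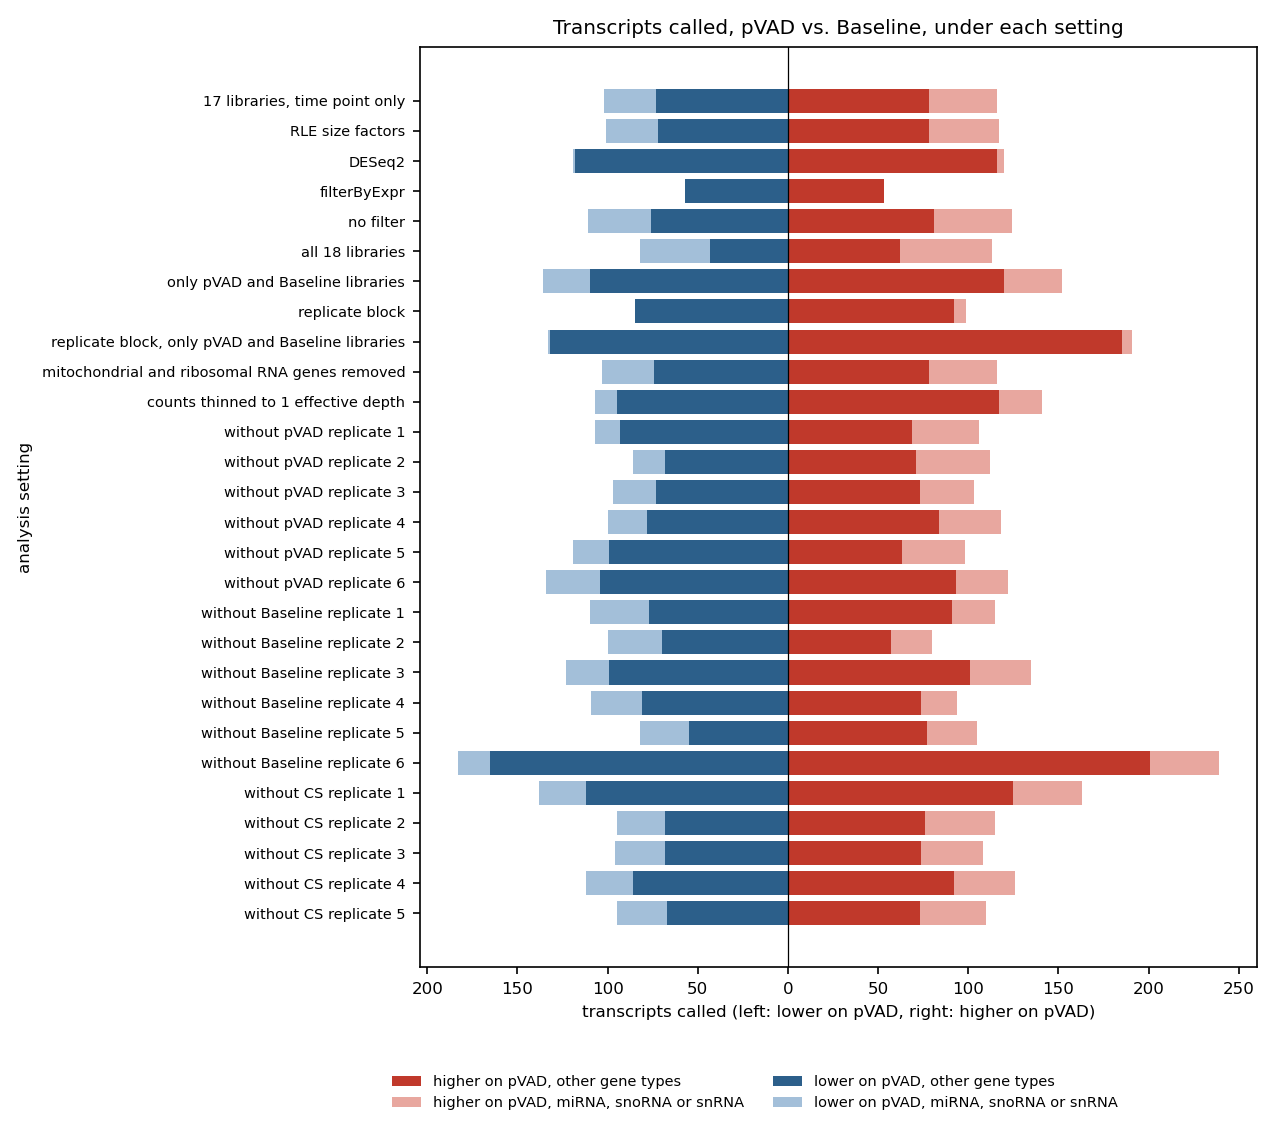
Transcripts called in pVAD vs. Baseline under each analysis setting (rows), higher on pVAD to the right in red and lower on pVAD to the left in blue, with miRNA, snoRNA and snRNA genes in the pale part of each bar. The total is 218 for 17 libraries with the time point only, 110 with filterByExpr and 422 without Baseline replicate 6. The pale parts nearly vanish with DESeq2 and the replicate block. They are absent with filterByExpr, which removes thinly read genes before the fit.

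The libraries were also compared by the share of counts that each gene type took. Protein-coding genes took 51.0 ± 13.5% of counts on pVAD and 50.5 ± 5.80% at Baseline, and lncRNAs 36.5 ± 9.40% on pVAD and 37.6 ± 5.96% at Baseline (SD, n = 6 each). Ribosomal RNA took 7.79 ± 2.86% on pVAD and 6.55 ± 1.22% at Baseline, and mitochondrial ribosomal RNA 4.37 ± 2.06% on pVAD and 5.03 ± 1.44% at Baseline. Pseudogenes took 0.211 ± 0.0769% on pVAD and 0.181 ± 0.0299% at Baseline. Over these 5 gene types the exact permutation p, two-sided, was 0.383 to 0.955 (adjusted 0.898 to 0.955), and 0.375 to 1 by sign flips within pigs. Without pVAD replicate 6 the pseudogene difference went to 0.0569 percentage points, against 0.0299 with it (exact permutation p = 0.0368, unadjusted), and the lncRNA and protein-coding differences changed sign without some of the other libraries. The low end for protein-coding genes and the high end for lncRNAs on pVAD were both replicate 6, at 27.0% and 52.5%.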

How the data were processed

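The libraries were made from serum RNA with a low-input cDNA kit. According to the submitters' notes, the authors trimmed reads with Trim Galore 0.4.4, aligned them with STAR 2.4.2a and counted them with featureCounts in R 3.6.0; the genome build is not given in the sources used here. The authors deposited unnormalized counts for each gene. The pairing of libraries by animal comes from a column of the deposited sample table. With each gene centered on its time point, pVAD and Baseline libraries of the same animal correlated with r of 0.038 to 0.604 (median 0.21) and those of different animals with a median of -0.054.

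Counts were analysed with edgeR 4.0.16 (limma 3.58.1) in R 4.3.3, for genes with at least 5 reads in total. TMM factors and the quasi-likelihood test were used in a single fit of 17 libraries on the time point alone, with the contrast pVAD minus Baseline, two-sided. CS replicate 6 (2.48 M counts) was left out, as in the study. Named genes were, in each direction, the 12 called genes of smallest p that had a symbol and averaged 10 reads or more, then up to 3 called genes of each list, each called miRNA gene, miR-200b, and 6 transcripts lacking a symbol. The members and the 34 lists were chosen with earlier results of these data known. Where the file gave no single symbol, 797 were added from a gene table.

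Alternatives were RLE factors, DESeq2 1.42.0, filterByExpr, no filter, all 18 libraries, only the 12 libraries, the pig as a block with 17 or 12 libraries, mitochondrial and ribosomal RNA genes removed, other thresholds and each library left out. Thinned counts, and a fit leaving out pVAD replicate 6 and CS replicate 4, were added after seeing the data. Statistics were tested on simulated data. The labels do not say whether libraries were prepared in separate batches. Counting intervals and floors cover counting error only.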

Additional observations from a re-analysis of the deposited data

Results flagged for a closer look

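In 106 groups of 6 libraries, 31 had a highest or lowest library set far apart from the rest. For normally distributed values, chance alone would give about 1 in 20. Many of these groups were CPM values of genes named because they were called, and some were skewed or had no reads in several libraries. The count of 31 therefore cannot be set against that rate, and an excess of such libraries was not tested. Baseline replicate 2 stood above the other Baseline libraries for HSPA14 (59.9 CPM), PTH1R (17.3 CPM), ssc-mir-30a (0.998 CPM), the basigin transcript ENSSSCG00000027907 (20.7 CPM) and ENSSSCG00000037632 (7.13 CPM), and below them for PCNA (0.314 CPM). Baseline replicate 5 stood highest for NDFIP2 (213 CPM), ARRDC3 (8.73 CPM), IFN-ALPHA-1 (3.11 CPM), MIR10A (1.72 CPM), ENSSSCG00000049200 (8.80 CPM) and ENSSSCG00000035070 (2.85 CPM). Baseline replicate 4 stood highest for NIP7 (0.200 CPM), ssc-let-7c (0.0222 CPM) and ssc-let-7a-2 (0.4001 CPM), Baseline replicate 3 for MIR124-3 (0.0949 CPM), MIR19B-1 (0.0380 CPM) and the pseudogene share of counts (0.240%), and Baseline replicate 1 for MIR212 (0.277 CPM).

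On pVAD, replicate 1 stood highest for ARFGAP2 (8.60 CPM), MIR19B-1 (0.3998 CPM), ssc-mir-200b (0.436 CPM) and ENSSSCG00000014896 (1.47 CPM). Replicate 2 stood highest for CXCL8 (3.31 CPM, with the next library at 1.03 CPM) and METTL23 (3.84 CPM). Replicate 4 stood highest for ENSSSCG00000044439 (1.52 CPM), ENSSSCG00000037632 (2.43 CPM) and ssc-mir-30a (0.0165 CPM), replicate 3 for ssc-mir-20b-1 (0.115 CPM) and replicate 5 for ssc-mir-9799 (0.174 CPM). Replicate 6 had an effective library size of 20.3 M, below the others. For genes read in a single library of a group, such as ssc-let-7a-2, any read sets that library apart.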

How the results depend on the processing

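The count of calls was 110 with filterByExpr (53 higher, 57 lower), 19 at p below 0.01 (9 higher, 10 lower) and 180 to 422 with a library left out, lowest without Baseline replicate 2 and highest without Baseline replicate 6 (higher 80 to 239, lower 82 to 183). With the replicate block it was 184 in 17 libraries, of which 87 were among the 218, and in the 12 libraries alone 191 were called higher and 133 lower. DESeq2 called 239, of which 123 were among the 218. Of the 46 named genes that were called, 5 kept their call at the same thresholds under each other alternative fit (CXCL8, GNAT1 and 3 transcripts without a symbol); CXCL8 was not called at p below 0.01, and 25 kept it with the block. With all 18 libraries 21 lost it, RBM15 among them. Left-out libraries moved the pVAD minus Baseline share of lncRNA counts from -4.30 to 0.545 percentage points, of protein-coding counts from -1.36 to 5.32 and of pseudogene counts from 0.0179 to 0.0569, the last without pVAD replicate 6 (exact permutation p = 0.0368, unadjusted). The lncRNA difference turned positive without pVAD replicate 3 or 4 or Baseline replicate 5 (0.170, 0.133 and 0.545), and the protein-coding one negative without pVAD replicate 1, 2, 3 or 4 or Baseline replicate 4 or 5 (-0.968, -1.36, -1.32, -0.730, -0.362 and -0.714). The miR-200b difference ran from -0.0386 (without pVAD replicate 1) to 0.0563 CPM, and its log2 change from -0.73 to 0.84. The cause of these shifts was not tested. Low counts limit what can be said of small RNAs, as 107 of the calls lie below 10 reads per library.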
